A study of Mus musculus with 10 samples.

Results

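RBPJ occupied 864 sites that lay close to a promoter without being centred on it. These were the peaks of RBPJ chromatin immunoprecipitation sequencing (ChIP-seq) whose centre was more than 1 kb and at most 5 kb from the closest transcription start site (TSS) among protein-coding transcripts. They made up 7.79% of 11094 peaks (95% exact interval 7.30 to 8.30%). Position alone chose them, so their distance from the TSS is a description, while their sequence, width and gene context were not used in the choice. For comparison, 5489 peaks were centred within 1 kb of a TSS, 3008 over 5 to 50 kb away and 1733 beyond 50 kb.

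The peaks came from RD1 cells, which the labels give as mouse brain pericytes, grown without any treatment on collagen I in pericyte medium. Immunoprecipitation was directed at RBPJ, at histone H3 or at its methylated forms H3K4me1 and H3K4me3, and input DNA without antibody made the remaining group, with 2 replicates in each of 5 groups (10 samples). The 2 RBPJ samples carried identical copies of 1 consensus peak list, used once, while no file of the remaining 8 samples was used here. The list holds intervals without score, summit or read count. Depth and the spread between replicates are therefore unknown, the intervals and tests given are those of counting peaks, and neighbouring peaks are not independent of each other. A peak gives no expression level, so the pericyte identity of the cells could not be checked, and the nearest gene named for a peak is only the gene whose TSS lies closest.

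RBPJ is the DNA-binding factor through which Notch receptors act on genes. It recognises the core TGGGAA, which reads TTCCCA on the other strand, and favours a G in front of it. Without Notch activity RBPJ is held in complexes with corepressors, and on activation the cleaved Notch receptor and a Mastermind-like protein (MAML) join it and turn it into an activator. Pairs of cores that face each other a short distance apart can bind Notch complexes that contact each other, and such paired sites are known from promoters of the Hes and Nrarp genes. Pericytes wrap capillaries, and Notch3 is the main Notch receptor of these mural cells.

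The sequences below show the core in its genomic setting in promoter-adjacent intervals of Notch pathway genes, since these are the best understood RBPJ targets. Dll4 (a Notch ligand) and Notch3 are shown as whole intervals. For Hes1 and Hes7, transcriptional repressors induced by Notch, the stretch with the densest cores of a wider interval is given, chosen after its values were seen. Each is GRCm38, plus strand, written 5′ to 3′, with the cores in capitals.
Dll4 chr2:119327267-119327545: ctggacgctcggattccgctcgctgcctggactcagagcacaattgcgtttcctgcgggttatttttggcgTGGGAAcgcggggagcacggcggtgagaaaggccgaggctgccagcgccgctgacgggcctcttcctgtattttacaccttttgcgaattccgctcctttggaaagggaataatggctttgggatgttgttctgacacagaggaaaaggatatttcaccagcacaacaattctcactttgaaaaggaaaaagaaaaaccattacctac
Notch3 chr17:32162147-32162395: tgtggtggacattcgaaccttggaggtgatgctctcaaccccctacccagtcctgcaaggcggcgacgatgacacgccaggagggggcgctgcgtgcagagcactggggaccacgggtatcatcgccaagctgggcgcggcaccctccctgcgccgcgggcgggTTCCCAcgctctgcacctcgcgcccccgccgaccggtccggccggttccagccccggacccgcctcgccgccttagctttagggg
Hes1 chr16:30065240-30065299: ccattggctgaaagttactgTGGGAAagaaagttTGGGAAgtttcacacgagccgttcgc
Hes7 chr11:69119910-69120183: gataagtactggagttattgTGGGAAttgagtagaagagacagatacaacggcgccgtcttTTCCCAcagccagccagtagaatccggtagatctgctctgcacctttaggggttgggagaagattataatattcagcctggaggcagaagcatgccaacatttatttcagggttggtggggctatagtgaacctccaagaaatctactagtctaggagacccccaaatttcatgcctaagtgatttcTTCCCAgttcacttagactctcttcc
Both the Dll4 and the Notch3 interval were centred in an intron, and their single cores stood 1557 and 4538 bp downstream of the TSS. The 2 Hes1 cores stood 77 and 63 bp upstream of the TSS in the same orientation. The 3 Hes7 cores stood 471, 430 and 243 bp upstream, of which the first and second face each other.

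The second set of sequences shows facing cores, TGGGAA or TGAGAA followed by TTCCCA or TTCTCA, with 14 bp between them. Nek6, Vmn2r6 and Rps6 come first in chromosomal order, and Gpr4 and Polr1c were added after their values were seen because both of their cores were TGGGAA and outside repeats. Nrarp, a Notch target whose protein limits Notch signalling, is added for its pair with a gap of 15 bp. Each is GRCm38, plus strand, with both cores in capitals.
Nek6 chr2:38513094-38513119: TGGGAAggttcttgcttaacTTCCCA
Vmn2r6 chr3:64568893-64568918: TGAGAAggggtaggaaagtcTTCTCA
Rps6 chr4:86856308-86856333: TGGGAAaaccttgcttgtcaTTCCCA
Gpr4 chr7:19216773-19216798: TGGGAAaaaatagcttcctgTTCCCA
Polr1c chr17:46244896-46244921: TGGGAAgacatcagcctgatTTCCCA
Nrarp chr2:25177814-25177840: TGGGAAgaaacactctcctctTTCCCA
The bases between the cores differed from site to site.

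The third set shows dense cores within narrow intervals. Serpinb1c, Eppk1 and Coq8b are the nearest genes of the members of at most 2000 bp that held the most cores, with ties at 5 cores broken by the narrower interval. The stretch with the densest cores is given from the plus strand of GRCm38, with the cores in capitals.
Serpinb1c chr13:32903374-32903573: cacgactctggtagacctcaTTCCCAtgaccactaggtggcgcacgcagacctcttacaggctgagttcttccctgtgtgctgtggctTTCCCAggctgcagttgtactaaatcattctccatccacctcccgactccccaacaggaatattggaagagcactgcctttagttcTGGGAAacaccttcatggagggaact
Eppk1 chr15:76117950-76118207: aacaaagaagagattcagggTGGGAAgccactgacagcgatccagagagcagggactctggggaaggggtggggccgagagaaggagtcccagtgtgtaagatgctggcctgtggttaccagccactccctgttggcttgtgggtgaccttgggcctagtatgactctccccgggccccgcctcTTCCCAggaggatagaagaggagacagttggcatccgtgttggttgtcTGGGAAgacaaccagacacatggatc
Coq8b chr7:27231886-27232146: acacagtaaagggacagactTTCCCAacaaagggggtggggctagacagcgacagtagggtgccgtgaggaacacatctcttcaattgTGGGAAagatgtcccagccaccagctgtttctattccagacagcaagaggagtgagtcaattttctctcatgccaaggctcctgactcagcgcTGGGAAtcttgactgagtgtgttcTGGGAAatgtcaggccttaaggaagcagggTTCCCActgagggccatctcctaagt
The Serpinb1c interval was 976 bp wide and held 6 cores, and the Eppk1 interval was 1796 bp wide and also held 6. The Coq8b interval was 484 bp wide and held 5. Foxc2, a forkhead factor of vessel and mesenchyme development, followed with 5 cores in 977 bp at 4012 bp downstream, and Tmem132c with 5 cores in 1512 bp at 1285 bp downstream. Pik3ip1 (1984 bp) and Cxcr1 (1987 bp), which fell outside the number named by rule and were added after their values were seen, also held 5.

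RBPJ peaks were about as dense in this zone as over the whole genome and far sparser than at promoters. The zone over 1 to 5 kb from a TSS covered 203 Mb, or 7.68% of the sequence counted, and held 4.25 peaks per Mb, against 4.19 per Mb over all distances. Density was 85.0 per Mb within 1 kb, 3.15 per Mb over 5 to 50 kb and 1.22 per Mb beyond 50 kb. Counting only intervals that overlap no TSS, it was 3.24 per Mb in the zone, 5.50 within 1 kb and 3.14 over 5 to 50 kb. Upstream the density of all peaks was 20.2 per Mb at 500 to 1000 bp. It dropped to 6.90 per Mb at 1000 to 1500 bp and 3.32 per Mb at 1500 to 2000 bp. Downstream it dropped from 28.9 to 9.58 and 4.43 per Mb over the same steps. Without intervals that overlap a TSS the same steps gave 4.10, 2.73 and 2.34 per Mb upstream. Downstream they gave 5.71, 3.80 and 2.60 per Mb. From 2 to 5 kb the density of all peaks ran between 2.74 and 4.24 per Mb on either side. Downstream the last 4 steps held 4.09, 3.96, 3.01 and 2.74 per Mb from 53, 50, 37 and 33 peaks. Upstream the last step held 3.91 per Mb. Just past the zone the downstream steps held 3.76 and 4.09 per Mb, and no trend was tested.

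**Figure D1:**
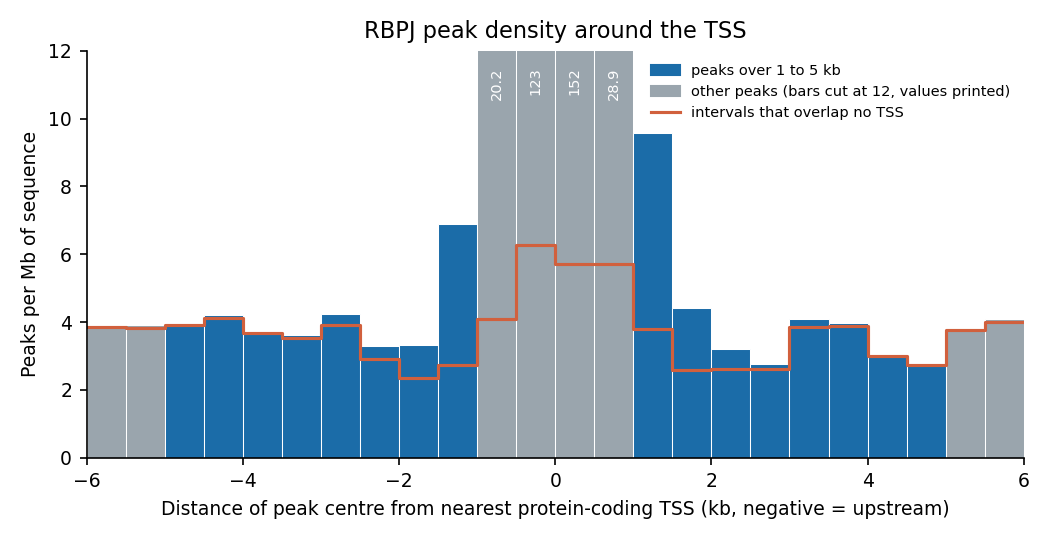
Peaks per Mb of sequence (y axis) in steps of 500 bp of signed distance from the nearest protein-coding TSS (x axis, kb). Bars within 1 kb are cut and carry their value; the line gives the intervals that overlap no TSS, which ran from 2.34 to 4.13 per Mb between 1 and 5 kb.

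The limits themselves fall on a continuum. The peaks just outside 1 kb were nearest to Klf13 and Atxn10, both centred 1000 bp from the TSS, and those just inside were nearest to Pex3 at 1001 bp and Snai2 at 1003 bp. At the far limit Dsg2 at 4999 bp and Hsd17b12 at 4990 bp were inside, and Rxra at 5009 bp and Gm11273 at 5011 bp outside.

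The members were of 2 kinds. In 206 of them (23.8%, against 48.2% of all peaks) the interval was so wide that it reached a TSS although its centre did not lie near it, and 658 overlapped none. The overlapping intervals had a median width of 3459 bp (quartiles 2826 and 4286 bp) and the others a median of 454 bp (quartiles 282 and 1298 bp). Overlap became rarer with distance, and applied to 52.9% of members at 1 to 2 kb, 10.9% at 2 to 3 kb, 2.66% at 3 to 4 kb and 0.629% at 4 to 5 kb. Both the widths and this fall follow in part from the rule. With a centre over 1 kb away, only an interval over about 2 kb wide can reach a TSS. Since the authors merged peaks up to 2 kb apart, a wide interval can join a promoter peak to neighbours, and its centre need not be a bound site. The main shares are therefore also given without these 206 intervals.

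**Figure D2:**
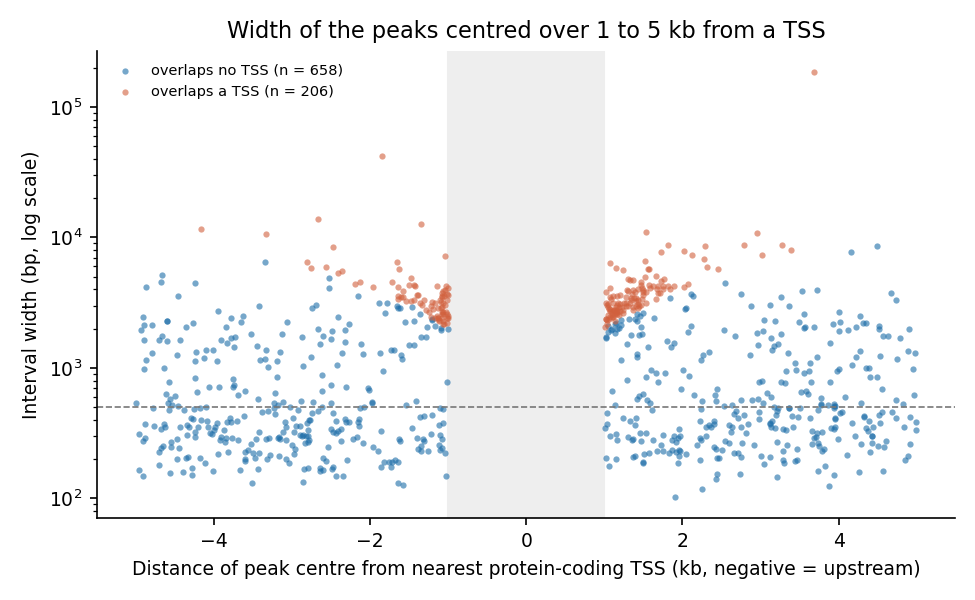
Interval width (y axis, bp, log scale) of each member against the signed distance of its centre from the TSS (x axis, kb), with the 206 intervals that overlap a TSS in orange and the 658 others in blue. Overlapping intervals lie at the upper edge, mostly within 2 kb, and the dashed line marks 500 bp.

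Of the members, 58.7% were at least 500 bp wide, against 63.7% of all peaks, 76.2% of the peaks within 1 kb (Fisher's exact test, adjusted p = 7.77e-25) and 50.5% of those over 5 to 50 kb (adjusted p = 5.61e-05). The excess over the 5 to 50 kb peaks turned round without the TSS-overlapping intervals, where 45.7% of 658 members and 50.4% of 3001 peaks were that wide (difference -4.67 percentage points, exact p = 0.0314). At a limit of 1000 bp the members exceeded the peaks within 1 kb (46.6 against 40.0%), but of the 658 members that overlapped no TSS only 29.9% were that wide. The widest was an interval of 185896 bp whose centre lay 3686 bp downstream of a TSS of Pdgfrb, a common marker of pericytes. It also covered Camk2a, Slc6a7, Cdx1, Csf1r and Hmgxb3 and held 237 cores. Speer4d (41804 bp), Klf3 (13739 bp), H2-Q6 (12770 bp) and Prl2c3 (11523 bp) followed, each overlapping a TSS.

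RBPJ cores were common at the centres of these peaks. TGGGAA on either strand lay in the central 200 bp of 286 of 864 members, or 33.1% (95% exact interval 30.0 to 36.4%), against 25.8% of all peaks. Windows of 200 bp tiled over the same zone of the genome held it in 17.8%. The peaks within 1 kb held it in 16.2%, a difference of 16.9 percentage points (interval 13.7 to 20.3, Fisher's exact test, adjusted p = 6.99e-28). The members did not differ past the threshold from the peaks over 5 to 50 kb (36.5%, difference -3.37 points, interval -6.88 to 0.263, adjusted exact p = 0.135) or from those beyond 50 kb (34.2%, difference -1.12 points, interval -4.92 to 2.77, adjusted p = 0.717). This depended on the setting. With 5′ ends of genes as TSSs the differences were -8.05 and -6.79 points (unadjusted exact p = 3.67e-06 and 1.63e-04). Over whole intervals they were 3.57 and 5.99 points (unadjusted exact p = 0.0380 and 0.00148).

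The share with a core also differed between intervals that overlap a TSS and those that do not. Members that overlapped no TSS held the core in 37.1% and those that overlapped one in 20.4% (adjusted exact p = 9.80e-06). A member is centred over 1 kb from any TSS, so by the rule only an interval over about 2 kb wide can overlap one. All 206 that did were at least 2058 bp wide, and 89 members over 2000 bp wide overlapped none. Of these 89 the core lay in 20.2% (exact interval 12.4 to 30.1%), beside 39.7% of the 569 members up to 2000 bp wide, none of which overlapped a TSS. The share was thus low in wide intervals of both kinds. Peaks within 1 kb that overlapped no TSS numbered 355 and held it in 30.7%, which differed from the 37.1% by 6.38 points (interval 0.227 to 12.3, p = 0.0451, adjusted exact p = 0.0594). Among TSS-overlapping intervals the shares were 20.4% of 206 members and 15.2% of 5134 peaks within 1 kb (difference 5.20 points, interval 0.158 to 11.3, p = 0.0486, adjusted exact p = 0.0594). Against the 5 to 50 kb peaks that overlapped no TSS (36.6%) the members that overlapped none differed by 0.528 points (interval -3.48 to 4.65, adjusted exact p = 0.906). These comparisons belong to 11 chosen after the data were seen and adjusted together.

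Over all members the share with a core was similar along the zone. It was 31.6% of 342 members at 1 to 2 kb, 33.1% of 175 at 2 to 3 kb, 34.0% of 188 at 3 to 4 kb and 35.2% of 159 at 4 to 5 kb, with intervals that overlapped each other. Without the TSS-overlapping intervals the same steps gave 44.1, 34.6, 34.4 and 35.4%, highest nearest to the TSS, a difference that was not tested. The genome windows fell only from 18 to 17.7% over this range.

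**Figure D3:**
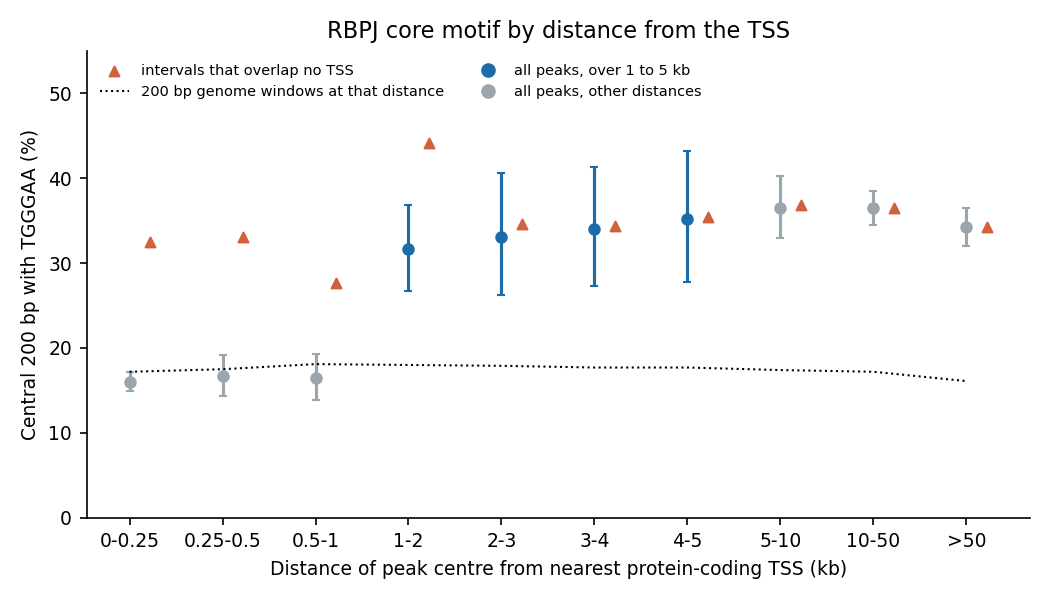
Share of peaks with TGGGAA in the central 200 bp (y axis, %) by distance of the centre from the TSS (x axis, kb). Circles with 95% exact intervals are all peaks, triangles are intervals that overlap no TSS, and the dotted line is the share in 200-bp genome windows at the same distance; the 4 blue circles lie between 31.6 and 35.2%, above the 3 at shorter distance.

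The core was enriched over sequence at the same distance from the same TSS. Each member was paired with the 200-bp window mirrored across its TSS, and 45 members whose mirror window met another peak were left out. Of 819 pairs, 278 peak windows and 146 mirror windows held TGGGAA (33.9 against 17.8%). It was in the peak alone in 233 pairs and in the mirror alone in 101 (two-sided exact McNemar test, adjusted p = 1.13e-12). The peak windows were richer in GC, with a median of 51.5% against 46.5%. Among members of at least 500 bp the shares were 22.6 and 18.8% (exact p = 0.179), and among those of at most 2000 bp 40.5 and 18.1% (p = 9.45e-15).

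Cores concentrated at the peak centre. Sites per kb in 100 windows numbered 234 within 50 bp of the centre, 167 at 50 to 100 bp, 123 at 100 to 250 bp, 119 at 250 to 500 bp and 107 at 500 to 1000 bp. Around the mirror centres the same steps gave 101, 105, 104, 106 and 106. The members thus stood highest above the mirror windows in the innermost step and lay close to them at 500 to 1000 bp.

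**Figure D4:**
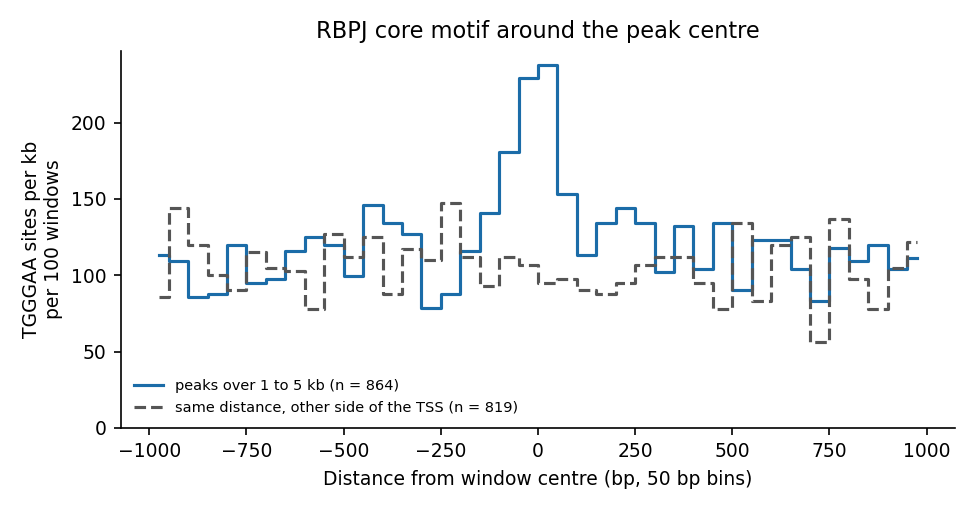
Number of TGGGAA sites on either strand per kb of sequence in 100 windows (y axis) in 50-bp steps from the window centre (x axis, bp), for the 864 members and for 819 windows mirrored across the TSS. The members reach 229 and 238 in the 2 innermost steps, while the mirror windows show no rise there.

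Over whole intervals, 213 members (24.7%) held no TGGGAA, 243 held 1, 144 held 2, 80 held 3, 69 held 4, 33 held 5 and 82 held at least 6. At least 1 core was thus found in 75.3% of members, against 64.9% of all peaks, a share that grows with interval width. Without the TSS-overlapping members it was 68.8%. Per kb of interval the members held 1.28 cores, all peaks 1.25 and the peaks over 5 to 50 kb 1.49. Among intervals that overlapped no TSS the values were 1.54 for members and 1.52 for peaks over 5 to 50 kb. The longer GTGGGAA stood in the central 200 bp of 11.3% of members, against 5.63% of the peaks within 1 kb (adjusted exact p = 1.73e-08) and 3.79% of genome windows in the zone. It stood in 13.4% of peaks over 5 to 50 kb and in 9.30% of all peaks.

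Base composition set the members between promoters and distal peaks. Windows with at least 55% GC made up 33.1% of members, against 52.7% of all peaks, 82.0% of peaks within 1 kb (adjusted exact p = 3.18e-180) and 26.5% of peaks over 5 to 50 kb (adjusted p = 2.74e-04). In the zone itself 8.06% of genome windows were that rich. Members that overlapped no TSS reached 37.2% and those that overlapped one 19.9% (adjusted exact p = 4.94e-06). The latter were all at least 2058 bp wide, and overlap and width were not separated for GC. The higher share of cores than in peaks within 1 kb held in each of 4 classes of GC content. It was 26.9 against 16.9% below 45% GC (adjusted exact p = 0.0271), 37.3 against 23.8% at 45 to 55% (adjusted p = 5.12e-05), 34.0 against 23.2% at 55 to 65% (adjusted p = 0.00361) and 25.4 against 11% from 65% on (adjusted p = 0.00361). None of the 8 comparisons with the more distant peaks passed the threshold in these classes. The classes were not split by TSS overlap, which applied to 23.8% of members and 93.5% of peaks within 1 kb. Compared by overlap instead, the excess over peaks within 1 kb missed the threshold (adjusted exact p = 0.0594 without and with a TSS).

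Motif shares of other factors differed from those of promoter peaks in more tests than from those of distal peaks. Of 15 motifs in 3 comparisons, beside the 3 of RBPJ with which they were adjusted, 21 of 45 tests passed an adjusted p of 0.05. Of these, 11 were against the peaks within 1 kb (4 higher and 7 lower), 2 against those over 5 to 50 kb (1 higher and 1 lower) and 8 against those beyond 50 kb (4 higher and 4 lower). With the RBPJ motifs counted, 24 tests passed, and 18 did once TSS-overlapping intervals were left out of every group but the peaks within 1 kb. TGANTCA, the site of the AP-1 factors of the Fos and Jun families, lay in 14.4% of members, against 10.4% of all peaks and 2.86% within 1 kb (adjusted exact p = 1.19e-36). It lay in 17.5% over 5 to 50 kb, in 19.8% beyond 50 kb (adjusted exact p = 0.00188) and in 5.78% of genome windows of the zone. In the mirror windows it lay in 4.88%, against 14.7% of the peak windows paired with them. It also divided the members, with 3.88% of those that overlapped a TSS and 17.6% of the others (adjusted exact p = 3.24e-07). Those that overlapped a TSS were all at least 2058 bp wide, and overlap and width were not separated for AP-1. The 5 to 50 kb peaks that overlapped no TSS held AP-1 in 17.5%. The members that overlapped none differed from them by 0.135 points (interval -2.93 to 3.50, adjusted exact p = 0.955). Peaks within 1 kb that overlapped none held it in 6.76% (difference 10.9 points, interval 6.74 to 14.7, adjusted exact p = 1.87e-06). Of members with a core in the window 19.9% also held AP-1, and of those without a core 11.6%. The order was the same in the other groups, with 4.61 and 2.52% within 1 kb, 19.7 and 16.2% over 5 to 50 kb and 25.0 and 17.2% beyond 50 kb.

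GGGCGG, bound by SP and KLF factors, lay in 14.4% of members. It lay in 52.0% of peaks within 1 kb (adjusted exact p = 2.65e-102), in 8.88% over 5 to 50 kb (adjusted p = 2.53e-05) and in 2.69% of genome windows. CATTCC, the site of the TEAD partners of YAP, lay in 13.3% of members. That was above the 7.12% within 1 kb (adjusted exact p = 2.86e-08) and below the 17.4% over 5 to 50 kb (adjusted p = 0.0119), with 10.5% in genome windows. The RUNX motif TGTGGT was in 14.5% of members and 6.67% of peaks within 1 kb (adjusted exact p = 1.45e-12), but in 15.1% of genome windows. The GATA motif AGATAA was in 9.49 and 3.08% (adjusted exact p = 1.35e-14), with 11.7% in genome windows. For both of these motifs the share in members lay below that in the genome windows of the zone. The ETS motif CCGGAAG was in 1.85% of members and 9.82% of peaks within 1 kb (adjusted exact p = 3.40e-18). All motifs were searched on both strands, and GTGGGAA contains TGGGAA. A match describes the letters and not a bound site.

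Facing cores were found in 29 members (3.36%, against 2.65% of all peaks) at a gap of 11 to 21 bp anywhere in the interval. The share in the remaining peaks was 2.59% (difference 0.766 points, interval -0.295 to 2.22, adjusted exact p = 0.277). Of the 658 members that overlapped no TSS 17 (2.58%) held such a pair, and of the 206 that overlapped one 12 (5.83%). Pairs were searched over whole intervals, whose median widths in these groups were 454 and 3459 bp. Among intervals of at most 2000 bp the share was 2.64% of members and 2.26% of the remaining peaks (exact p = 0.561). TGAGAA, counted as a core in pairs, lay in the central 200 bp of 18.8% of members and 17.3% of genome windows in the zone. The gap of 14 bp was the most frequent among the 32 pairs, with 13, followed by 5 at 19 bp and 3 each at 15 and 18 bp. Of 273 pairs in the other peaks 86 also had a gap of 14 bp. Of the 13, 5 touched soft-masked repeat sequence, and in 7 both cores were TGGGAA. Members with this gap were nearest to Nek6, Vmn2r6, Rps6, Prkcz, Chic2, Mlec, Gpr4, Rtn4, Grb2, Elmo1, Gm49391, Jam2 and Polr1c, of which the last exceeds the number named by rule and was added after its values were seen. In 9 of the 13 the interval was under 500 bp wide and the pair lay within 84 bp of its centre. In Mlec (131 bp) it stood 21 bp from the centre, in Rtn4 (194 bp) 9 bp and in Gm49391 (261 bp) 11 bp. In Chic2 (4191 bp) it stood 1994 bp away. In the Nrarp interval of 1810 bp, centred 3135 bp upstream, the pair shown earlier stood 204 bp from the centre.

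Members lay about equally on both sides of the TSS, 408 upstream (47.2%, against 44.7% of all peaks) and 456 downstream. The peaks over 5 to 50 kb were upstream in 46.1% (difference 1.08 points, interval -2.68 to 4.86, adjusted exact p = 0.588). This depended on the TSSs used: with 5′ ends of genes alone 333 members were upstream and 622 downstream, or 34.9% upstream against 42.8% of the peaks over 5 to 50 kb (exact p = 1.49e-05). Cores were in 31.4% of upstream and 34.6% of downstream members (adjusted exact p = 0.351). With TGGGAA or TGAGAA counted the shares were 41.4 and 49.8% (exact p = 0.0140). By annotation 489 members (56.6%) were centred in introns, where 56.2% of the zone lies, and 287 (33.2%) outside protein-coding genes, against 36.0% of the zone. A further 53 (6.13%, against 3.79%) were in coding exons, 26 (3.01%, against 3.85%) in 3′ untranslated regions and 9 (1.04%, against 0.242%) in 5′ untranslated regions. The start of a transcript that is not protein-coding, most often an antisense RNA (20) or a lincRNA (8), lay within 1 kb of 51 members (5.90%, against 11.6% of all peaks and 3.20% of genome windows in the zone). These held a core in 25.5% and the remaining members in 33.6% (adjusted exact p = 0.351, interval of the difference -18.6 to 5.66 points).

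The rule places members near promoters, where peaks are dense, so the distance to other peaks is given as a description. Another peak lay within 10 kb of 42.2% of the members that overlapped no TSS and of 27.2% of such peaks over 5 to 50 kb. The share was 20.5% over all peaks, 15.8% within 1 kb and 14.6% beyond 50 kb. Their nearest gene had a peak within 1 kb of a TSS in 31.2%, against 42.0% for the 5 to 50 kb peaks and 24.5% of all protein-coding genes. The methods describe merging of peaks up to 2 kb apart, although 15 members had a separate peak within that distance in the list. The part of merging in these values was not tested.

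Chromosomes 4, 7, X and Y held few of all RBPJ peaks (4.07%) and of the members (4.40%). Per 100 protein-coding genes there were 0.904 on chromosome 4, 0.840 on 7, 0.949 on X and 0 on Y. The other 17 autosomes ran from 2.49 on chromosome 12 to 7.28 on chromosome 1, with a median of 4.88.

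In all, 819 protein-coding genes (3.73% of 21938) were the nearest gene of a member, 40 of them of at least 2. With 3 members each were C130026I21Rik, Mlph, Csk, Kdm6b and Ergic1. Kdm6b, which removes methyl groups from histone H3 lysine 27, had an interval of 3955 bp in an intron at 3721 bp with 6 cores, one of 198 bp at 1683 bp upstream with none and one of 1641 bp at 4702 bp upstream with 4. The 3 intervals of Csk, a kinase that restrains Src, held 0 cores. Of 491 genes in 10 lists of pathways and cell types, 61 were nearest to a member, through 64 intervals. The core lay in the central 200 bp of 18 of these (28.1%) and anywhere in 48 (75.0%), and 18 overlapped a TSS. Lists were chosen with results of these data known, genes differ in length and number of TSSs, and the shares that follow are descriptions beside the 3.73%.

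Of 54 Notch pathway genes 9 (16.7%) had members, through 10 intervals. Together these held 31 cores, 17 of them GTGGGAA, and 5 had a core in the central 200 bp. Among receptors and ligands the Notch3 interval was 249 bp wide and centred 4581 bp downstream, and the Dll4 interval 279 bp and 1622 bp downstream, each with the core shown earlier. Among targets the Hes1 interval of 7702 bp ran from 2122 bp upstream to 5579 bp downstream of the TSS, and held 9 cores. Its central 200 bp held none. The Hes7 interval of 2791 bp held 7 cores and reached 114 bp past the TSS. Nrarp held 4 cores in 1810 bp, all between 3447 and 2610 bp upstream. Ccnd1, the cyclin that opens the G1 phase, held 5 cores in 2466 bp centred 2418 bp upstream.

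Among the coactivators of RBPJ, Maml3 had 3389 bp with 2 cores and reached its TSS, and Maml2 had 287 bp at 1324 bp upstream with none. Of the 10 intervals 3 overlapped a TSS (Hes1, Hes7 and Maml3). In the map of these intervals the cores of Nrarp and Ccnd1 lay over 1 kb upstream throughout, whereas those of Hes1 and Hes7 extended to the promoter.

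**Figure D5:**
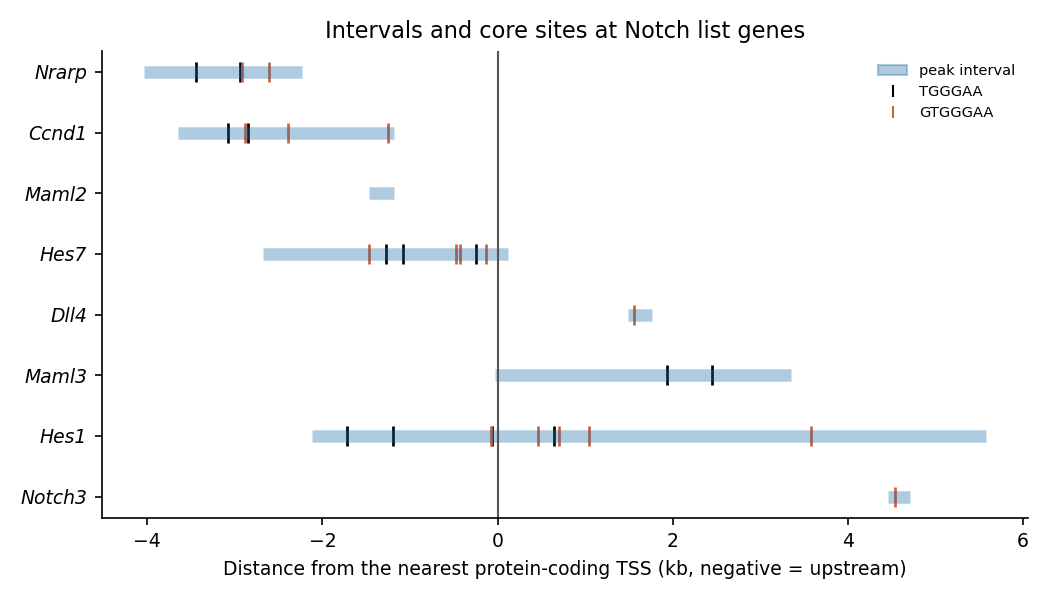
Peak intervals (bars) of 8 Notch list genes against distance from the nearest protein-coding TSS (x axis, kb), 1 row per member, with TGGGAA sites as black ticks and GTGGGAA as orange ticks. The 5 narrower or offset intervals stop short of the TSS at 0, while those of Hes1, Hes7 and Maml3 cross it.

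Of 55 genes of the TGF-beta, BMP and Smad list 6 (10.9%) had members. Id1, an inhibitor of basic helix-loop-helix factors induced by BMP, had an interval of 6853 bp with 9 cores that overlapped the TSS, and Id2 one of 740 bp at 3750 bp upstream with a central GTGGGAA. Inhbb, a subunit of activin and inhibin, had 2273 bp with 3 cores, and Tgif2, a repressor of Smad targets, 964 bp with 2. Bmp1, the procollagen C-proteinase, had 375 bp at 4536 bp downstream with 1 central core. Smad3, which carries the TGF-beta signal to DNA, had 362 bp in an intron, 4348 bp upstream of its nearest TSS, with none.

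Of 39 pericyte and smooth muscle genes 5 (12.8%) had members, Notch3 and Pdgfrb among them. Pdgfrb was counted through the interval of 185896 bp that covers 6 genes, so binding next to Pdgfrb itself is not shown. Ndufa4l2, a mitochondrial protein abundant in pericytes, had an interval of 10981 bp with 15 cores that overlapped a TSS. Srf, the serum response factor, had 4459 bp with 4 cores at 2549 bp downstream, and Myocd, its muscle coactivator, 715 bp with 1 core at 4072 bp upstream. No central 200 bp of these held a core except that of Notch3.

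Among matrix and vessel genes, intervals ranged from 0 cores to several. Of 54 matrix glycoprotein, integrin and laminin genes 5 (9.26%) had members, and none held more than 1 core. Ccn2, a matricellular protein also called Ctgf, had 301 bp at 4213 bp downstream with a central GTGGGAA. Ccn1 had 1133 bp at 3189 bp upstream, the integrin gene Itgb6 316 bp and the elastic fibre gene Emilin1 2006 bp, each with 1 core. Of 50 collagen, metalloprotease and inhibitor genes 6 (12%) had members. The gelatinase Mmp2 held 5 cores in 3736 bp at 4671 bp downstream, the basement membrane collagen Col4a2 held 4, and Timp2 and Adamts5 held 3 each. Of 46 vessel growth factor and receptor genes 3 (6.52%) had members, Pdgfrb again through its interval of 185896 bp. Vegfa held 6 cores in 4784 bp, 2 of them central, and the S1pr2 interval of 3118 bp held none, and both overlapped a TSS.

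Transcription factor, cytokine, guidance and cell cycle genes made up the remaining lists. Of 43 genes of AP-1, Runx, TEAD and immediate early factors 6 (14%) had members, with 6 cores in Ier2, 4 in Srf and 3 each in Tead4 and Mafk. Of 44 chemokine, cytokine and NF-κB genes 5 (11.4%) had members. Il34 held 4 cores in 1811 bp at 3522 bp upstream and Tnfrsf1a 2 in 545 bp. The chemokine gene Ccl2 had 285 bp at 3340 bp upstream with 1 central core, and the cytokine gene Lif had 307 bp at 2903 bp upstream with 1 central core and 1000 bp at 4392 bp downstream with 1. Of 74 Wnt, FGF and axon guidance genes 16 (21.6%) had members. Unc5b, a netrin receptor, held 5 cores in 4334 bp across a TSS, Wnt9a 4 in 1620 bp and Spred2 3 in 1135 bp. Sema3f held 2 central cores in an interval of only 147 bp at 1035 bp upstream, and its other interval of 163 bp at 3734 bp downstream held none. Of 43 cell cycle genes 4 (9.30%) had members. Beside Ccnd1, Cdkn1b had 1531 bp at 2644 bp upstream with 1 central core, and Ccnd2 and Ccnd3 had 380 and 536 bp in introns with none.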

How the data were processed

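According to the study's methods, reads were mapped by the authors with bowtie (GRCm38) and freed of duplicates. MACS2 and PeakRanger were both run on each of the 2 RBPJ replicates, calls up to 2 kb apart were joined, regions backed by 3 or more overlapping calls were retained, and blacklisted ones were dropped. The submitters' processing notes name FastQC, Bowtie, Picard, SAMtools and deepTools. The deposited file gives the start and the end of each region in bp and no score, so depth is unknown. Merging can shift a centre away from a bound site.

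Distances ran from the centre to 54327 TSSs of protein-coding transcripts (GENCODE M21, GRCm38). Motifs were matched on both strands. Shares were compared by two-sided Fisher's exact and exact McNemar tests. Benjamini-Hochberg adjustment was made over the 54 motif tests, the 9 other design comparisons, the 12 tests in GC classes and the 11 added tests separately. Intervals of shares are 95% Clopper-Pearson and cover counting error only. The tools were scipy 1.17.1, pysam 0.24.0, pandas 2.3.3 and numpy 2.4.6 under Python 3.11.15. Scripts were tested on simulated data. Sequences are those of the GRCm38 genome.

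The members, gene lists, motifs and comparisons were chosen with earlier results of these data known. Genes were named by rule: all list genes with a member for the Notch, TGF-beta and pericyte lists, up to 4 with the most cores for the others, up to 12 members with pairs at 14 to 17 bp, the 5 with the most cores, the 5 widest, 5 genes with several members, and 2 peaks at each side of each limit. Alternatives changed the TSS set, peak point, width, window, motif, chromosomes and repeats. One item of the Notch list is not reported here by name, and is counted in the totals.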

Additional observations from a re-analysis of the deposited data

How the results depend on the processing

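Of 100 tests recalculated under another setting 83 kept their direction and side of the threshold, and 9 of 10 counts stayed within 1.5 times the main count. Differences are members minus the group named, in percentage points. The number of members was 507 with intervals of at least 500 bp. The difference in TGGGAA from peaks over 5 to 50 kb was -8.05 with 5′ ends of genes as TSSs, -4.67 without chromosomes 4, 7, X and Y and -4.54 in the central 400 bp, all past the threshold. It was 0.528 without intervals that overlap a TSS and 3.57 over whole intervals, the second past the threshold (p = 0.0380 by Fisher's exact test). The difference from peaks beyond 50 kb passed the threshold in opposite directions, with -6.79 by gene 5′ ends and 5.99 over whole intervals. It was 2.86 without TSS-overlapping intervals, 0.1000 for intervals of at least 500 bp and 2.73 for those of at most 2000 bp, none past the threshold. The difference from mirror windows was 3.80 for intervals of at least 500 bp, no longer past the threshold. The share of wide intervals differed from peaks within 1 kb by 6.69 at a limit of 1000 bp and from peaks over 5 to 50 kb by -4.67 without TSS-overlapping intervals, both past the threshold. The upstream share differed by -7.88 with gene 5′ ends, past the threshold, and by -3.12 for intervals of at least 500 bp. Upstream minus downstream members differed in cores by 1.38 with gene 5′ ends and by -8.36 with TGGGAA or TGAGAA, the second past the threshold. The causes were not tested. The excess of TGGGAA over peaks within 1 kb kept its direction and call under the 11 alternatives tried (TSS-overlapping intervals were there left out of the members alone), and so did both differences in GC-rich share under their 7. Compared like with like, among intervals without and with a TSS, that excess was 6.38 and 5.20 and missed the threshold (adjusted exact p = 0.0594 for both). By gene 5′ ends 641 of the 864 would still be members. Leaving out either RBPJ replicate left 864 members, since both copies were identical. No paired analysis was possible because both replicates held 1 consensus list. Selection by score could not be run, and depth limits are unknown.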
